A study of Mus musculus with 64 samples.

Results

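Natural killer (NK) cells carry chemokine receptors that decide where the cells go, and 5 such receptor genes are described here: Ccr2, Ccr7, Cxcr3, Cxcr4 and Cxcr6. They were taken by gene symbol from a table of raw counts with 36273 gene rows, and each symbol matched 1 row. All 5 passed the filter on low counts, which kept 10723 genes. The cells were mouse spleen NK cells cultured over 5 days in a small amount of IL-2 plus a complex of IL-15 with IL-15Ra, and gene expression was measured by bulk sequencing of the 3' ends of mRNA in 64 libraries.

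The libraries form 18 groups of genotype, treatment and stimulation. Wild-type cells (WT) came from C57BL/6J mice. EP2KO stands here for cells of Ptger2-/-Ptger4fl/fl mice, which lack the prostaglandin E2 (PGE2) receptor EP2 and carry an uncut conditional allele of EP4. DKO stands for cells of GzmbCrePtger2-/-Ptger4fl/fl mice, labelled EP2/EP4KO, in which Cre expressed with the granzyme B gene removes EP4, so that deletion depends on cells that turn Gzmb on. Cells of each genotype were left untreated, given PGE2 at 100 ng/ml, or given medium conditioned by PGE2-producing control BRAFV600E tumour cells (CM), for 5 hours in all. Unstimulated cells, called resting below, received nothing else. Stimulated cells had 1 hour of the treatment and then 4 hours of antibody against NK1.1, an activating receptor of NK cells. Each group holds 4 libraries in WT and EP2KO and 3 in DKO, except that WT cells with PGE2 and no stimulation gave 2 (numbered 2 and 4). The labels do not say whether libraries of a group were taken from different animals or cultures; the p-values therefore reflect only library-to-library spread, which may be technical.

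Chemokine receptors are seven-helix membrane proteins that couple mainly to inhibitory G proteins (Gi) and steer cells along gradients of small secreted proteins, the chemokines. CCR2 binds CCL2 and draws monocytes and NK cells out of bone marrow and into inflamed tissue. CXCR3 binds the interferon-induced chemokines CXCL9 and CXCL10 and brings NK and T cells into inflamed tissue and tumours. CCR7 binds CCL19 and CCL21 and guides cells into lymph nodes, CXCR4 binds CXCL12 and holds cells in bone marrow, and CXCR6 binds CXCL16 and is known from lymphocytes that stay in the liver. EP2 and EP4 are both coupled to the stimulatory G protein and raise cyclic AMP, which acts through protein kinase A on the transcription factor CREB and its relative CREM.

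In GENCODE M21 on GRCm38, Ccr2 lies on chromosome 9 from 124101950 to 124113557 on the plus strand. Cxcr6 lies on chromosome 9 from 123806475 to 123811760 on the plus strand, within the span of Fyco1, which is read from the other strand. Whether strand was used in counting is not given in the sources used here, so counts of Cxcr6 and Fyco1 may be shared. Cxcr3 lies on chromosome X from 101731535 to 101734269 on the minus strand, Ccr7 on chromosome 11 from 99144196 to 99155077 on the minus strand and Cxcr4 on chromosome 1 from 128588199 to 128592293 on the minus strand. No gene of that annotation overlaps Ccr2, Ccr7, Cxcr3 or Cxcr4.

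RefSeq entries (GRCm38.p6) for the start of transcription were found for 4 of the 5 genes, Ccr7 not being among them. The stretches before 3 of them, kept outside the GENCODE gene, are shown because Cxcr4, Cxcr3 and Cxcr6 moved in different directions with treatment and stimulation in the values below. Each is written 5′ to 3′ on the gene's strand, at chr1:128592300-128592549 (minus), chrX:101734270-101734397 (minus) and chr9:123806227-123806474 (plus). Capitals mark matches to the motifs searched.
Cxcr4: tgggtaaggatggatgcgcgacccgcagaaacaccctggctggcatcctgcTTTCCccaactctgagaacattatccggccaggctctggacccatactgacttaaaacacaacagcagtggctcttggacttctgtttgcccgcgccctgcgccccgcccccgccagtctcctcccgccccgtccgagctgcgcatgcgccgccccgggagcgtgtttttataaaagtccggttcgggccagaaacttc
Cxcr3: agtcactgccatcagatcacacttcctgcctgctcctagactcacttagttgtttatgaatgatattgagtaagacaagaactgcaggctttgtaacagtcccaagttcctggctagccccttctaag
Cxcr6: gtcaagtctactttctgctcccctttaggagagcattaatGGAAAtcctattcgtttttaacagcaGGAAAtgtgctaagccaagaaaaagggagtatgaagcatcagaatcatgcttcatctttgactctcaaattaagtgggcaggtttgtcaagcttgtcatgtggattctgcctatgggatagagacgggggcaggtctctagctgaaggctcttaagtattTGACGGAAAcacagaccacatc
The motifs, searched on both strands in the 250 bases before each RefSeq start, were the cyclic AMP response element bound by CREB and CREM (TGACGTCA), its short form (TGACG), the core of NFAT sites (GGAAA) and the AP-1 site (TGANTCA). Cxcr4 held 1 match, the NFAT core on the other strand (TTTCC as printed). Cxcr6 held 3 matches to the NFAT core and 1 to the short form, which shares a base with the NFAT core nearest to the start. Ccr2 held 3 matches to the NFAT core, all of them inside the GENCODE gene. Only 17 bases of the Ccr2 window lie before that gene's start. Cxcr3 held none of the 4 motifs. Over 32851 promoter windows of the same length, 55.6% held the NFAT core, 17.8% the short form, 6.75% the AP-1 site and 1.55% the full cyclic AMP response element. A match describes letters in a window and is not a binding site.

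Library totals ran from 753973 to 1693750 counts (median 1256163). Levels below are CPM, that is, counts scaled to a total of 1000000 after correcting for library composition. Marker sums, and the values given in this paragraph for single marker, sex-linked and targeted genes, lack that correction. Levels are compared within a gene and not between genes. Ccr2 had 245 to 2146 counts per library, Cxcr6 18 to 139, Cxcr4 10 to 83, Cxcr3 6 to 63 and Ccr7 0 to 59, so Ccr7 is the least precise of the 5. All 13 NK cell markers, among them Ncr1, Klrb1c, Nkg7 and Eomes, were counted in every library. Of markers of other cells, 5 of 8 for B cells, 2 of 11 for T cells, 5 of 13 for myeloid and dendritic cells and 3 of 8 for neutrophils averaged under 1 CPM over the 64 libraries, among them Cd79a, Cd4, Cd5, Flt3, Fscn1, Siglech and Ly6g. Others were well above it: Ighm, of B cells, averaged 60.2 CPM, the T cell receptor genes Trbc1, Trbc2 and Trac 284, 200.2 and 31.7 CPM, Cd3d 11.2 CPM, and Itgax, Cd74 and H2-Ab1, of antigen-presenting cells, 52.8, 47.4 and 33.9 CPM. The summed level of 8 neutrophil markers, led by Mpo, S100a8 and Elane, was 612 to 853 CPM in the 6 EP2KO libraries numbered 1 and 446 to 612 CPM in the 6 numbered 4, against 34.9 to 506 CPM in all other libraries. The sum of 13 myeloid and dendritic cell markers was 300.0 to 544 CPM in these 12 libraries and 92.7 to 308 CPM in the others. DKO libraries also differed in sex-linked genes: Xist ranged from 28.3 to 66.3 CPM in DKO and from 476 to 970.0 CPM in WT and EP2KO, and Ddx3y from 52.3 to 177 CPM in DKO and from 0 to 6.94 CPM elsewhere. Sex and the DKO genotype therefore cannot be told apart. This bears on every comparison of DKO with another genotype, for all 5 genes, Cxcr3 being X-linked itself. For the targeted genes, WT libraries held 3.35 to 32.1 CPM of Ptger2 and 9.14 to 80.7 CPM of Ptger4, EP2KO libraries 2.45 to 13.0 and 14.1 to 63.6 CPM, and DKO libraries 2.17 to 14.6 and 31.7 to 123 CPM. A 3' tag can lie outside the deleted part of a gene, so these levels check no label.

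**Figure D1:**
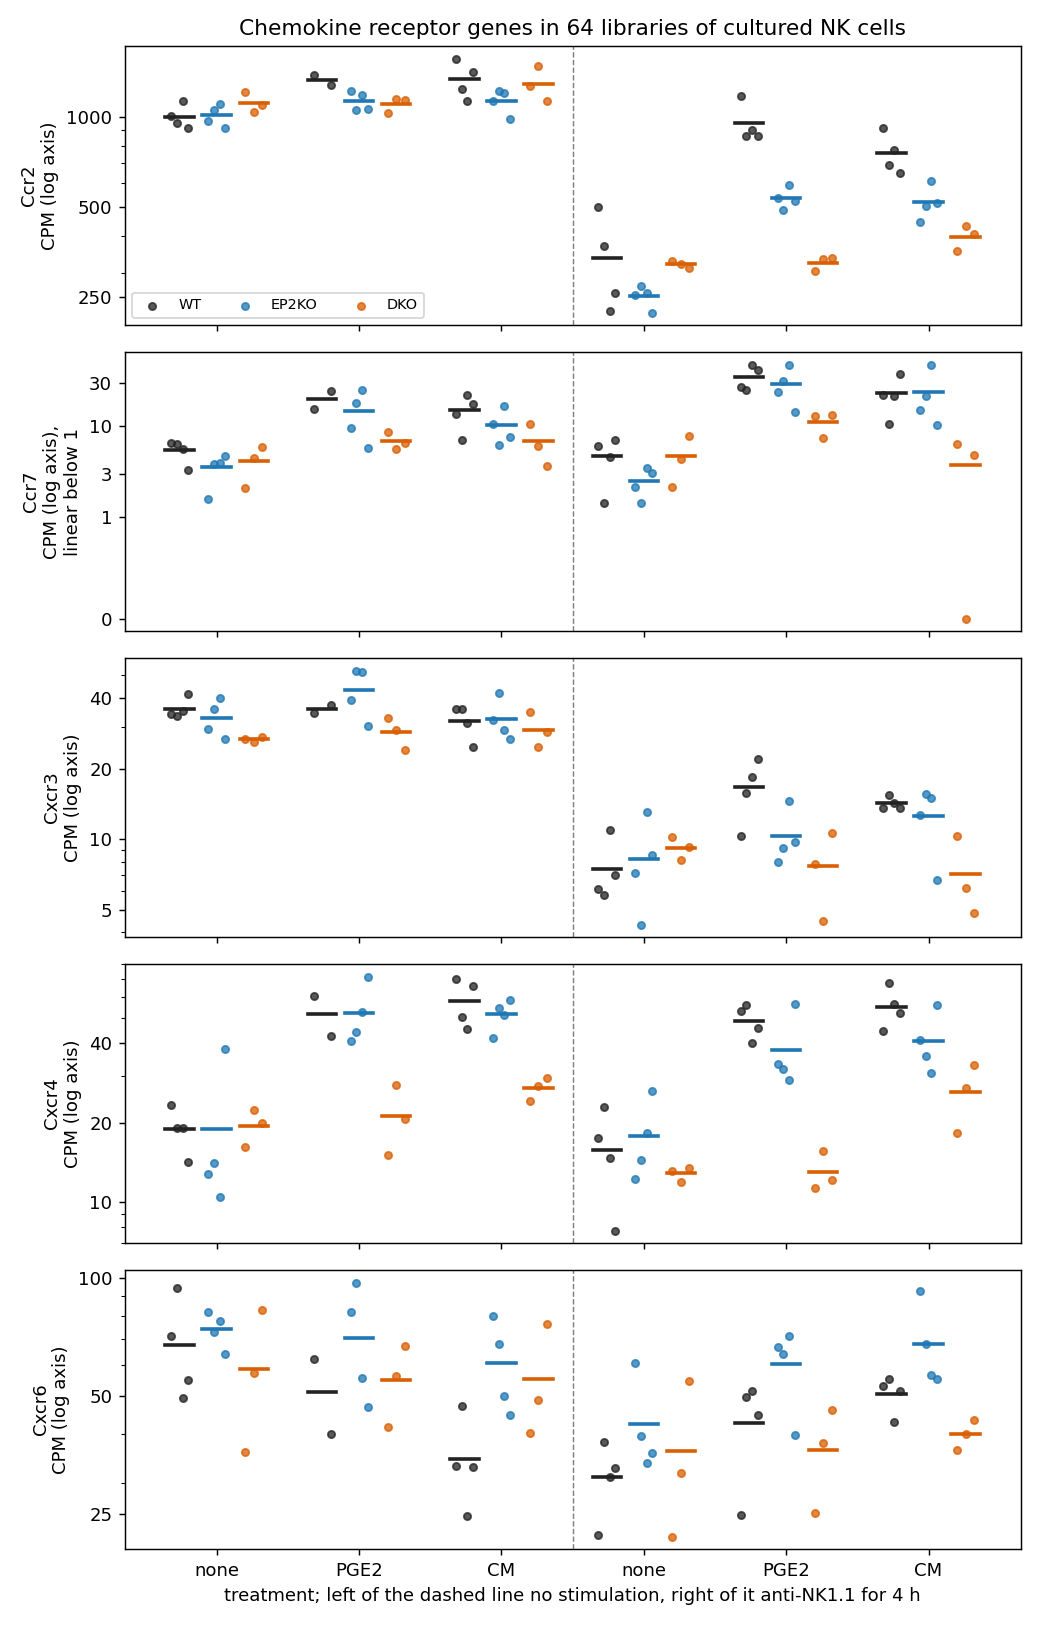
Level of each receptor gene in all 64 libraries, in CPM on a log axis (the Ccr7 axis is linear below 1 so that 1 library at 0 can be shown). Points are libraries, horizontal bars are group means, colours are genotypes, and groups right of the dashed line were stimulated with anti-NK1.1 for 4 hours. Among the stimulated groups, WT and EP2KO points for Ccr2 lie higher with PGE2 or CM than without, and the DKO points with PGE2 lie at 305 to 338 CPM beside 312 to 328 CPM without it.

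After engagement of NK1.1, transcripts of 3 of the 5 receptors were lower in untreated WT cells. Ccr2, Cxcr3 and Cxcr6 fell to 33.8%, 20.7% and 46.0% of their resting means within 4 hours, while Ccr7 and Cxcr4 did not pass the test. The same receptors fell in EP2KO cells, and Ccr2 and Cxcr3 also in DKO cells. Of the 5 genes, 3 were called lower in WT at an adjusted p under 0.05 (edgeR's quasi-likelihood test, adjusted over all tested genes), where 19.1% of all tested genes were called lower and 23% higher; their median log2 fold change was -1.12 against 0.01 over all genes. In EP2KO 3 were called lower (background 15%) and in DKO 2 (background 13.8%).

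Ccr2 stood at 915, 949, 1006 and 1124 CPM in the 4 resting WT libraries and at 224, 257, 369 and 498 CPM in the 4 stimulated ones. Every stimulated library lay below every resting one, although the stimulated libraries spread over a wide range. The log2 fold change was -1.56 ± 0.15 (adjusted p = 8.8e-14), that is 2.96-fold lower. In EP2KO cells the resting libraries held 915, 968, 1052 and 1102 CPM and the stimulated ones 221, 253, 257 and 272 CPM, a change of -2.01 ± 0.15 (adjusted p = 1.6e-17). DKO cells went from 1033, 1095 and 1209.8 CPM to 312, 323 and 328 CPM, a change of -1.79 ± 0.17 (adjusted p = 2.5e-13). No genotype showed any overlap between resting and stimulated libraries.

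Cxcr3 had the largest fall of the 5 in WT. Its resting WT libraries held 33.5, 34.2, 35.3 and 41.5 CPM and its stimulated ones 5.75, 6.09, 7.01 and 10.98 CPM, a log2 fold change of -2.29 ± 0.26 (adjusted p = 3.9e-11). The groups were far apart, the stimulated values resting on 8 to 12 counts a library. EP2KO libraries went from 26.7, 29.4, 36.0 and 40.1 to 4.31, 7.16, 8.55 and 13.0 CPM (-2.02 ± 0.25, adjusted p = 1.3e-09) and DKO libraries from 26.0, 26.7 and 27.4 to 8.13, 9.21 and 10.2 CPM (-1.54 ± 0.28, adjusted p = 1.4e-05). Transcripts of 2 of its ligands were abundant enough to test among 11 ligand genes of the 5 receptors, and both rose in stimulated WT cells, where 23% of all genes did: Cxcl9 from 3.55 to 34.0 CPM (log2 fold change 3.28 ± 0.91, adjusted p = 0.0032) and Cxcl10 from 10.4 to 37.1 CPM (1.84 ± 0.71, adjusted p = 0.032).

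Cxcr6 held 49.5, 54.8, 71.2 and 94.1 CPM in resting and 22.1, 31.1, 32.7 and 38.1 CPM in stimulated WT libraries, without overlap, and changed by -1.12 ± 0.27 (adjusted p = 0.00062). In EP2KO the change was -0.80 ± 0.26 (adjusted p = 0.0131), with 63.9, 72.8, 77.8 and 81.8 CPM before and 33.8, 35.7, 39.5 and 60.9 CPM after stimulation. The DKO libraries overlapped widely, at 35.9, 57.1 and 83.0 against 21.9, 31.9 and 54.5 CPM, and the change of -0.70 ± 0.30 was not called (adjusted p = 0.0747, 95% interval -1.30 to -0.09). These values stand in the order of the library numbers, and each stimulated one lay below the resting one of the same number. The change was called without resting library 1 (-0.96, adjusted p = 0.0176) or without stimulated library 3 (-1.11, adjusted p = 0.0114). Cxcr6 is also a marker of type 1 innate lymphoid cells (ILC1), and 5 of 6 tested ILC1 markers, Itga1, Tmem176a and Tmem176b among them, were called lower with stimulation in WT, against 19.1% of all genes. Their summed level over 7 genes was 274 to 385 CPM in resting and 109 to 223 CPM in stimulated WT libraries; in bulk samples fewer cells of a type and less RNA per cell cannot be told apart. Fyco1, which shares the locus, changed by -0.56 ± 0.28 in WT (adjusted p = 0.103). It was called lower on stimulation in EP2KO (-0.93 ± 0.30, adjusted p = 0.0115) and in DKO (-1.36 ± 0.33, adjusted p = 0.00094). With CM in stimulated EP2KO cells Fyco1 was called higher (0.92 ± 0.30, adjusted p = 0.033), and with PGE2 or CM in no other group. The part of shared counts in the Cxcr6 changes was not tested.

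Ccr7 and Cxcr4 were not called in any genotype on stimulation alone. Ccr7 stood at 3.32, 5.72, 6.38 and 6.54 CPM in resting and 1.44, 4.57, 6.09 and 7.01 CPM in stimulated WT libraries, with a 95% interval of the log2 change from -1.43 to 1.001, which holds a 2-fold fall. Cxcr4 held 14.1, 19.1, 19.1 and 23.3 CPM in resting and 7.79, 14.6, 17.5 and 23.0 CPM in stimulated WT libraries (interval -0.86 to 0.34). In DKO the stimulated Cxcr4 values, 11.9, 13.1 and 13.5 CPM, lay below the resting ones, 16.2, 20.01 and 22.2 CPM, with a change of -0.60 ± 0.34 (adjusted p = 0.189). No difference of the stimulation effect between genotypes was called: 0 of 5 genes were called for EP2KO against WT (background 0%) and 0 of 5 for DKO against EP2KO (background 0%), in edgeR and in DESeq2 alike. At an unadjusted p under 0.05 the first of these tests held 1 of the 5, Ccr2, with a difference of -0.44 ± 0.20 (95% interval -0.85 to -0.04), and 460 genes overall; the second held 0 of the 5 and 227 genes.

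In resting cells, PGE2 and CM raised the bone marrow retention receptor Cxcr4. Cxcr4 rose to 273% of its untreated mean with PGE2 and to 306% with CM in WT, and it rose as well in EP2KO cells. Ccr7 rose with PGE2 in EP2KO cells and Cxcr6 fell with CM in WT cells. In DKO cells none of the 5 passed the test. With PGE2, 1 of the 5 was called higher in WT (background 1.91% higher and 1.05% lower) and 2 in EP2KO (background 1.75%). With CM, 1 was called higher and 1 lower in WT (background 4.55% higher and 3.68% lower) and 1 higher in EP2KO (background 2.23%). The median log2 fold change of the 5 in WT was 0.41 with PGE2 and 0.42 with CM, against 0.01 for all genes in both.

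Cxcr4 in resting WT cells stood at 14.1, 19.1, 19.1 and 23.3 CPM untreated, 42.6 and 60.5 CPM with PGE2 and 45.2, 50.2, 66.0 and 70.1 CPM with CM. All treated libraries lay above all untreated ones. The log2 fold changes were 1.44 ± 0.31 (adjusted p = 0.0017) for PGE2 and 1.61 ± 0.26 (adjusted p = 1.1e-05) for CM. The PGE2 call was lost without PGE2 library 2, where the change was 1.16 with an adjusted p of 0.208, and it stood without any other 1 of the 6 libraries compared. EP2KO cells held 10.4, 12.7, 14.1 and 38.2 CPM untreated, 40.7, 44.1, 52.8 and 71.6 CPM with PGE2 and 41.9, 51.4, 54.6 and 58.2 CPM with CM, changes of 1.497 ± 0.26 (adjusted p = 6.8e-05) and 1.49 ± 0.27 (adjusted p = 8.7e-05). Library 4 was the highest in each of these 3 groups and in all 6 EP2KO groups, and it is among those with high neutrophil and myeloid marker sums. Without the EP2KO libraries numbered 1 and 4, a choice made after seeing the data, the Cxcr4 changes in resting EP2KO cells were 1.96 with PGE2 (adjusted p = 7.9e-05) and 2.10 with CM (adjusted p = 2.3e-05).

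Ccr7, the lymph node homing receptor, held 3.32, 5.72, 6.38 and 6.54 CPM in untreated resting WT libraries, 15.6 and 24.3 CPM with PGE2 and 7.17, 13.6, 17.5 and 21.9 CPM with CM. All treated values lay above all untreated ones, yet the changes of 1.83 ± 0.57 with PGE2 (adjusted p = 0.0626) and 1.399 ± 0.52 with CM (adjusted p = 0.0851) were not called by edgeR. DESeq2 called both, at adjusted p = 0.0439 and 0.0494. In EP2KO cells Ccr7 stood at 1.59, 3.91, 4.01 and 4.77 CPM untreated, 5.73, 9.50, 18.3 and 24.9 CPM with PGE2 and 6.23, 7.63, 10.7 and 16.7 CPM with CM, and the PGE2 change of 2.002 ± 0.55 (adjusted p = 0.0264) was called. That call rests on 2 to 26 counts a library and was lost on leaving out any of 5 of its 8 libraries, with a change as low as 1.65 (adjusted p = 0.188) without PGE2 library 3.

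Cxcr6 stood at 49.5, 54.8, 71.2 and 94.1 CPM in untreated, 39.98 and 62.2 CPM in PGE2-treated and 24.6, 33.0, 33.1 and 47.1 CPM in CM-treated resting WT libraries. Those with CM lay below all untreated ones, and the change of -0.96 ± 0.28 (adjusted p = 0.023) was called; with PGE2 it was -0.41 ± 0.32 (adjusted p = 0.611). The CM call was lost without any 1 of 5 of the 8 libraries, the largest adjusted p being 0.0966 (change -0.76) without untreated library 2. EP2KO libraries with CM held 44.8, 49.98, 67.8 and 79.8 CPM and those with PGE2 46.8, 55.6, 82.1 and 97.4 CPM, overlapping the untreated values. The 13 NK cell markers summed to 11497 to 13176 CPM in untreated, 8055 to 9912 in PGE2-treated and 7793 to 9564 in CM-treated resting WT libraries, and mitochondrial genes took 8.93%, 10.8% and 11.1% of the counts on average; the part of either in these changes was not tested.

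Ccr2 held 1280.2 and 1377 CPM with PGE2 and 1131, 1238, 1408 and 1563 CPM with CM in resting WT cells, above all 4 untreated libraries. The changes of 0.41 ± 0.17 (adjusted p = 0.226) and 0.42 ± 0.14 (adjusted p = 0.0519) were not called. With CM, DESeq2 gave Ccr2 an adjusted p of 0.0289. In EP2KO the resting Ccr2 values were 1057, 1063, 1183 and 1214 CPM with PGE2 and 979.5, 1127, 1195 and 1215 CPM with CM, next to 1009 ± 84.0 CPM (SD, n = 4) untreated. Cxcr3 in WT stood at 36.1 ± 3.69 CPM (SD, n = 4) untreated, 36.0 ± 1.98 CPM (SD, n = 2) with PGE2 and 32.0 ± 5.28 CPM (SD, n = 4) with CM, the 95% intervals of the log2 changes being -0.51 to 0.50 and -0.60 to 0.26. In EP2KO it stood at 43.5 ± 10.5 CPM (SD, n = 4) with PGE2 and 32.5 ± 6.75 CPM (SD, n = 4) with CM.

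Resting DKO cells gave no call for any of the 5 with PGE2 (background 0%) or CM (background 0%) in edgeR or DESeq2. At an unadjusted p under 0.05 there were again 0 of the 5 for either treatment, and 184 and 485 genes overall. Cxcr4 stood at 16.2, 20.01 and 22.2 CPM untreated, 15.1, 20.6 and 27.8 CPM with PGE2 and 24.1, 27.4 and 29.5 CPM with CM, so only the CM libraries lay above the untreated ones. The 95% intervals of the Cxcr4 changes were -0.52 to 0.76 with PGE2 and -0.16 to 1.11 with CM, next to 0.97 to 2.03 and 0.95 to 2.03 in EP2KO. The difference between the genotypes itself was not called, at adjusted p = 0.233 for PGE2 and 0.726 for CM. Ccr7 held 2.11, 4.45 and 5.93 CPM untreated, 5.71, 6.65 and 8.60 CPM with PGE2 and 3.69, 6.17 and 10.7 CPM with CM. Ccr2 was at 1106 ± 66.2 CPM (SD, n = 3) with PGE2 and 1288 ± 174 CPM (SD, n = 3) with CM, Cxcr3 at 28.7 ± 4.55 CPM (SD, n = 3) and 29.4 ± 5.11 CPM (SD, n = 3), and Cxcr6 at 55.0 ± 12.8 CPM (SD, n = 3) and 55.1 ± 19.0 CPM (SD, n = 3).

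When NK1.1 was engaged in the presence of PGE2 or CM, 4 of the 5 receptors were higher than after stimulation alone. In WT cells Ccr2, Cxcr3, Ccr7 and Cxcr4 all rose with either treatment, Ccr7 the most. Ccr2 with PGE2 stood at 95.1% of the mean of resting untreated cells, where stimulation alone left 33.8%. Resting WT cells with PGE2 or CM stood at 133% and 134% of that same mean, neither change being called. EP2KO cells showed a rise of Ccr2, Ccr7 and Cxcr4 with both treatments, and in DKO cells none of the 5 passed the test. The 4 calls compare with 6% of all genes called higher and 9.63% lower with PGE2, and 6.2% higher and 9.22% lower with CM; the 5 genes had median log2 changes of 1.49 and 1.17, against -0.05 and -0.04 for all genes. The 3 calls in EP2KO compare with 3.39% called higher with PGE2 and 4.5% with CM.

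**Figure D2:**
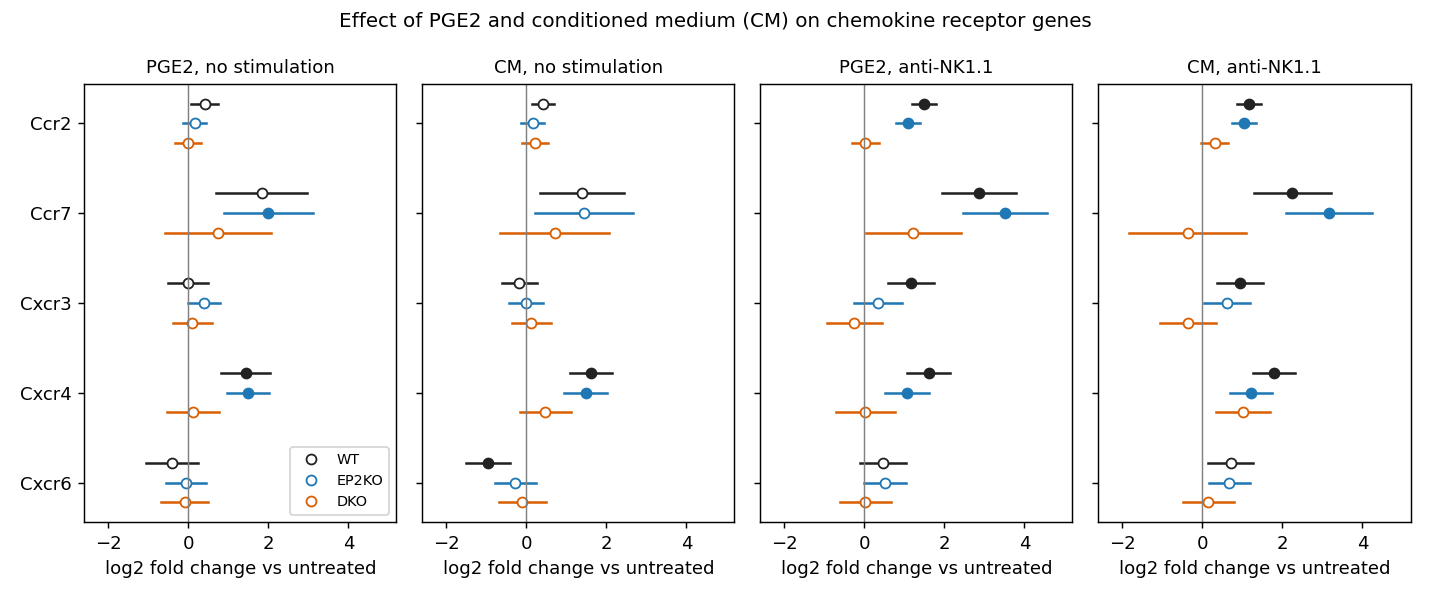
Log2 fold change of each receptor gene with PGE2 or conditioned medium (CM) against untreated cells of the same genotype and stimulation, from edgeR. Points are estimates, lines are 95% intervals, and filled points passed an adjusted p of 0.05. Filled points for Cxcr4 appear in WT and EP2KO in all 4 panels, those for Ccr2 in the 2 stimulated panels, and no DKO point is filled.

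Stimulated WT libraries held 224, 257, 369 and 498 CPM of Ccr2 untreated, 859.8, 862, 902 and 1175 CPM with PGE2 and 651, 692, 774 and 916 CPM with CM. Neither treated group overlapped the untreated one. The log2 fold changes were 1.49 ± 0.15 (adjusted p = 1.9e-12) with PGE2 and 1.17 ± 0.15 (adjusted p = 5.8e-09) with CM, that is 2.81-fold and 2.25-fold. EP2KO libraries held 221, 253, 257 and 272 CPM untreated, 487, 523, 536 and 589 CPM with PGE2 and 444, 504, 513 and 609.9 CPM with CM, again without overlap, and changed by 1.09 ± 0.15 (adjusted p = 8.8e-08) and 1.04 ± 0.15 (adjusted p = 2.5e-07). As a share of the resting untreated mean, this brought Ccr2 in EP2KO from 24.9% to 52.9% with PGE2 and 51.3% with CM, while WT reached 75.9% with CM. DKO libraries held 312, 323 and 328 CPM untreated, 305, 333 and 338 CPM with PGE2 and 357, 405 and 432 CPM with CM, or 28.9%, 29.3% and 35.7% of resting. PGE2 and untreated DKO values overlapped, with a log2 change of 0.02 ± 0.17 (95% interval -0.32 to 0.36); the CM values lay above the untreated ones, at 0.31 ± 0.17 (adjusted p = 0.781).

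**Figure D3:**
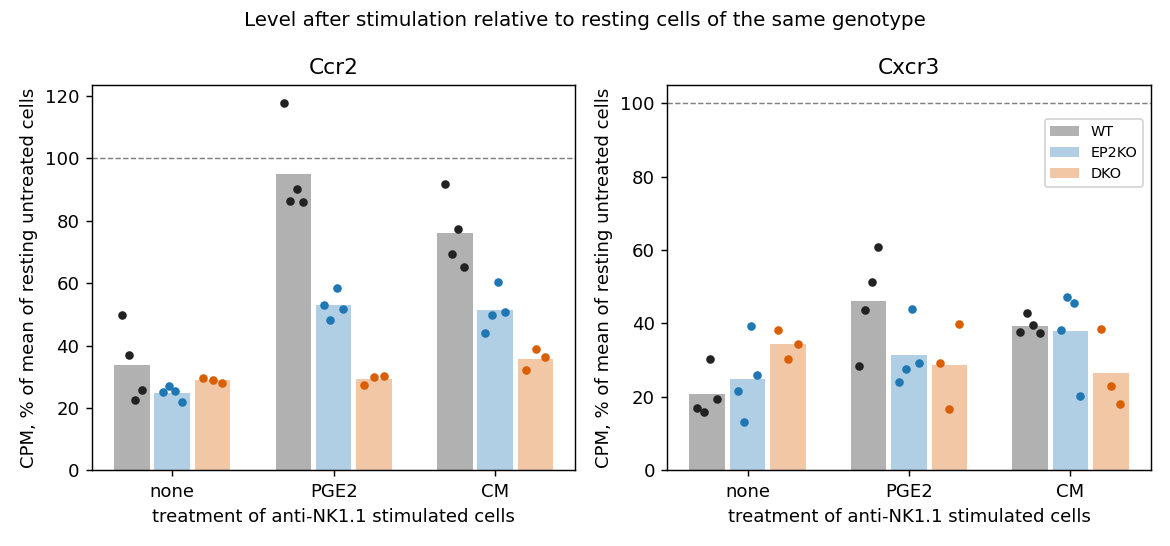
Ccr2 and Cxcr3 in stimulated cells as a percentage of the mean of resting untreated cells of the same genotype (dashed line at 100). Bars are group means and points are libraries. Ccr2 bars for WT stand at 33.8%, 95.1% and 75.9% untreated, with PGE2 and with CM, and those for DKO at 28.9%, 29.3% and 35.7%, while no Cxcr3 library reached the resting mean.

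Cxcr3 rose as well in WT but remained under its resting level. Stimulated WT libraries held 5.75, 6.09, 7.01 and 10.98 CPM untreated, 10.3, 15.8, 18.5 and 21.98 CPM with PGE2 and 13.5, 13.6, 14.3 and 15.4 CPM with CM. The CM libraries lay above all untreated ones, and those with PGE2 overlapped them by 1 library. Changes were 1.17 ± 0.29 (adjusted p = 0.002) with PGE2 and 0.95 ± 0.29 (adjusted p = 0.0165) with CM, reaching 46.1% and 39.4% of resting. The CM call was lost without untreated library 2 (adjusted p = 0.0546), with no filter on low counts (0.0691) and with only the 2 groups in the fit (0.0539). In EP2KO cells the values were 4.31, 7.16, 8.55 and 13.0 CPM untreated, 7.95, 9.16, 9.68 and 14.6 CPM with PGE2 and 6.72, 12.6, 15.0 and 15.6 CPM with CM, with uncalled changes of 0.34 ± 0.30 (adjusted p = 0.621) and 0.62 ± 0.29 (adjusted p = 0.185). DKO cells held 9.18 ± 1.04 CPM (SD, n = 3) untreated, 7.65 ± 3.09 CPM (SD, n = 3) with PGE2 and 7.10 ± 2.85 CPM (SD, n = 3) with CM.

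Ccr7 had the largest changes of the 5 in stimulated WT and EP2KO cells. WT libraries held 1.44, 4.57, 6.09 and 7.01 CPM untreated, 24.9, 27.4, 41.3 and 47.7 CPM with PGE2 and 10.6, 21.5, 22.2 and 37.8 CPM with CM, with no overlap between treated and untreated. The log2 fold changes were 2.87 ± 0.46 (adjusted p = 3.7e-06) and 2.24 ± 0.48 (adjusted p = 0.00049). EP2KO libraries held 1.44, 2.15, 3.11 and 3.47 CPM untreated, 14.5, 23.9, 31.3 and 47.7 CPM with PGE2 and 10.4, 15.3, 21.6 and 47.8 CPM with CM, changes of 3.52 ± 0.52 (adjusted p = 1.4e-06) and 3.17 ± 0.54 (adjusted p = 1.8e-05). DKO libraries held 2.19, 4.38 and 7.79 CPM untreated, 7.46, 13.0 and 13.5 CPM with PGE2 and 0, 4.83 and 6.34 CPM with CM, where the library at 0 had no count in a total of 1349253, which allows up to 2.22 CPM (3 counts, counting error only). Neither DKO change was called, at 1.22 ± 0.59 (adjusted p = 1) with PGE2 and -0.37 ± 0.73 (adjusted p = 0.983) with CM. Mature dendritic cells and T cells also express Ccr7: in WT the 13 myeloid and dendritic cell markers summed to 139.9 to 246 CPM in untreated, 117 to 248 in PGE2-treated and 115 to 235 in CM-treated stimulated libraries, and the 11 T cell markers to 407 to 689.8, 545 to 605 and 486 to 654 CPM. The summed ranges overlapped, but single markers changed. With PGE2, 1 of 7 tested T cell markers rose and 2 fell, and 2 of 8 tested myeloid and dendritic cell markers fell (all genes 6% higher and 9.63% lower); with CM 1 T cell marker rose and 1 fell, and 2 of the others fell (all genes 6.2% higher and 9.22% lower). The T cell surface gene Cd6 rose from 3.37 to 11.3 CPM with PGE2 (1.74 ± 0.40, adjusted p = 0.00095) and to 9.29 CPM with CM (1.45 ± 0.41, adjusted p = 0.008), and at rest with PGE2 (2.08 ± 0.51, adjusted p = 0.0096). Trac fell with both, at -0.77 ± 0.19 (adjusted p = 0.0026) and -0.61 ± 0.19 (adjusted p = 0.0175), as did Zbtb46, a factor of dendritic cells, at -1.22 ± 0.26 (adjusted p = 0.00045) and -1.13 ± 0.26 (adjusted p = 0.00097), and Itgax; Cd3g fell with PGE2, at -1.67 ± 0.43 (adjusted p = 0.0038). With stimulation alone, Trac had risen in WT from 18.4 to 56.4 CPM (1.61 ± 0.21, adjusted p = 2.7e-09). Zbtb46 had risen from 4.36 to 37.0 CPM (3.08 ± 0.33, adjusted p = 7.2e-12). No other of the 7 and 8 tested markers was called there (all genes 23% higher and 19.1% lower). Fscn1, a marker of mature dendritic cells, was at 0 in 50 of 64 libraries and Cd4 in 45. The part of other cells in the Ccr7 changes was not tested.

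Cxcr4 in stimulated WT cells went from 7.79, 14.6, 17.5 and 23.0 CPM to 39.9, 45.7, 53.1 and 55.7 CPM with PGE2 and 44.4, 52.3, 56.4 and 67.4 CPM with CM, changes of 1.61 ± 0.27 (adjusted p = 5.5e-06) and 1.79 ± 0.26 (adjusted p = 5.2e-07) without overlap. In EP2KO it stood at 12.2, 14.4, 18.2 and 26.4 CPM untreated, 29.1, 32.1, 33.3 and 56.2 CPM with PGE2 and 31.0, 35.7, 41.2 and 56.0 CPM with CM. The EP2KO changes were 1.07 ± 0.27 (adjusted p = 0.006) and 1.21 ± 0.26 (adjusted p = 0.0008), the first being lost without PGE2 library 4 (0.83, adjusted p = 0.0699) and without all EP2KO libraries numbered 1 and 4 (0.92, adjusted p = 0.0859). DKO libraries held 11.9, 13.1 and 13.5 CPM untreated, 11.3, 12.1 and 15.7 CPM with PGE2 and 18.2, 27.0 and 33.0 CPM with CM. With CM all 3 lay above the untreated ones, yet the change of 1.02 ± 0.33 (95% interval 0.35 to 1.69) was not called (adjusted p = 0.364); with PGE2 it was 0.03 ± 0.37 (interval -0.71 to 0.77). Cxcr6 was the receptor of the 5 that was not called in any treated stimulated group: 24.9, 44.8, 49.8 and 51.6 CPM with PGE2 and 42.9, 51.4, 53.0 and 55.2 CPM with CM in WT, the latter above all 4 untreated libraries at a change of 0.70 ± 0.28 (adjusted p = 0.077). In EP2KO it held 39.7, 64.1, 66.5 and 71.2 CPM with PGE2 and 55.2, 56.6, 67.7 and 92.5 CPM with CM (0.68 ± 0.26, adjusted p = 0.086), and in DKO 36.5 ± 10.6 CPM (SD, n = 3) and 40.01 ± 3.53 CPM (SD, n = 3). With no filter on low counts the Cxcr6 changes with CM were called, at adjusted p = 0.0258 in WT and 0.0241 in EP2KO.

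Over the stimulated DKO cells, 0 of the 5 were called with PGE2 (background 0%) and 0 with CM (background 0.0746%), in edgeR and in DESeq2. At an unadjusted p under 0.05 each treatment held 1 of the 5, Ccr7 with PGE2 and Cxcr4 with CM, and 260 and 723 genes overall.

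Whether PGE2 and CM acted more strongly on stimulated than on resting WT cells was tested as an interaction. For PGE2, 1 of the 5 was called (background 0.457%): Ccr2 changed by 1.49 in stimulated and 0.41 in resting cells, a difference of 1.08 ± 0.23 (adjusted p = 0.0037). For CM, 2 were called (background 0.839%), Ccr2 with a difference of 0.75 ± 0.20 (adjusted p = 0.0297) and Cxcr6 with 1.66 ± 0.39 (adjusted p = 0.0114). Cxcr6 thus fell with CM in resting cells and stood higher with it in stimulated ones, without a call there. The Ccr2 differences were not called when only the 4 groups concerned entered the fit (adjusted p = 0.141 for PGE2 and 0.129 for CM), nor without resting PGE2 library 4 (0.0537), and for CM without any 1 of 7 of the 16 libraries (adjusted p up to 0.0957, without stimulated untreated library 3). Cxcr3 differed by 1.17 ± 0.38 (adjusted p = 0.121) for PGE2 and 1.12 ± 0.36 (adjusted p = 0.0785) for CM, and Ccr7 by 1.03 ± 0.77 (adjusted p = 0.647) and 0.85 ± 0.74 (adjusted p = 0.606). For Cxcr4 the differences were 0.18 ± 0.41 and 0.17 ± 0.38, with 95% intervals from -0.65 to 1.01 and from -0.58 to 0.93.

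CM and PGE2 were compared directly in WT and EP2KO. None of the 5 genes was called in resting WT (background 0%), stimulated WT (0.00933%), resting EP2KO (0%) or stimulated EP2KO (0.00933%), by edgeR or DESeq2. At an unadjusted p under 0.05 there was 1 case, Ccr2 in stimulated WT cells, where it was lower with CM than with PGE2, with a log2 difference of -0.32 ± 0.14 (95% interval -0.61 to -0.04); over all genes there were 295, 491, 411 and 441. Intervals for Cxcr4 were -0.40 to 0.75, -0.29 to 0.64, -0.48 to 0.47 and -0.34 to 0.63 in the same order, so a difference of 2-fold lies outside each of them. Those for Ccr7 were wider, at -1.47 to 0.60, -1.35 to 0.11, -1.52 to 0.39 and -1.08 to 0.38.

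To describe cells without EP2, treatment effects were compared between EP2KO and WT. Besides EP2, these differ in the conditional EP4 allele and in the mouse line, which cannot be told apart here. Differences were called for 0 of the 5 in each of 4 tests: PGE2 in resting cells (background 0%), CM in resting cells (0%), PGE2 in stimulated cells (0%) and CM in stimulated cells (0%). The counts were 0 of the 5 in DESeq2 and at an unadjusted p under 0.05 as well, where 272, 346, 465 and 266 genes of all stood. For PGE2 in stimulated cells, the EP2KO minus WT differences were -0.40 ± 0.20 for Ccr2 (95% interval -0.81 to 0.01), -0.82 ± 0.42 for Cxcr3 (-1.66 to 0.01), -0.54 ± 0.39 for Cxcr4 (-1.32 to 0.23) and 0.65 ± 0.78 for Ccr7 (-0.91 to 2.21). Between untreated EP2KO and WT cells none of the 5 was called by edgeR or DESeq2, at rest (background 0.0653%) or stimulated (0.0746%); at an unadjusted p under 0.05, 0 stood at rest and 1 after stimulation, Ccr2, lower in EP2KO with a difference of -0.43 ± 0.15 (adjusted p = 0.478). The marker sums given above differ between libraries of these genotypes, and their part in such differences was not tested.

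The treatment effect was then compared between DKO and EP2KO. These differ in the removal of EP4, in GzmbCre and in sex-linked genes, which cannot be told apart here. For PGE2 in stimulated cells, 1 of the 5 was called (background 0.485%): Ccr2, which changed by 1.09 in EP2KO and 0.02 in DKO, a difference of -1.07 ± 0.22 (adjusted p = 0.0034). The call was lost without the EP2KO libraries numbered 1 and 4, at -1.004 (adjusted p = 0.0876). Ccr7 differed by -2.30 ± 0.86 (adjusted p = 0.284), Cxcr4 by -1.04 ± 0.46 (adjusted p = 0.474), Cxcr3 by -0.59 ± 0.46 (adjusted p = 0.808) and Cxcr6 by -0.48 ± 0.41 (adjusted p = 0.843). For CM in stimulated cells (background 0.345%) 0 were called by edgeR and DESeq2 and 3 stood at an unadjusted p under 0.05: Ccr7 with -3.53 ± 0.94 (adjusted p = 0.0735), Ccr2 with -0.74 ± 0.22 (adjusted p = 0.173) and Cxcr3 with -0.98 ± 0.45 (adjusted p = 0.633). In resting cells 0 were called by either tool for PGE2 (background 0.354%) or CM (background 0.214%), and 1 in each stood at an unadjusted p under 0.05, Cxcr4, with -1.38 ± 0.42 (adjusted p = 0.233) and -1.02 ± 0.42 (adjusted p = 0.726). The difference for PGE2 was called without untreated EP2KO library 4, whose Cxcr4 of 38.2 CPM stood apart (-1.94, adjusted p = 0.0102). Between untreated DKO and EP2KO cells none of the 5 was called by edgeR or DESeq2, at rest (background 0.056%) or stimulated (0.0839%); at an unadjusted p under 0.05, 0 stood at rest and 1 after stimulation, Ccr2 at 0.35 ± 0.16 (adjusted p = 0.958).

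Ordered by group mean over the 18 groups, Ccr2 ran from 1335 CPM in resting WT cells with CM to 251 CPM in stimulated EP2KO cells without treatment, a 5.32-fold range. In that order 14 of 17 pairs of neighbouring groups had overlapping libraries. The 3 that did not were stimulated WT with CM above stimulated EP2KO with PGE2, stimulated EP2KO with CM above stimulated DKO with CM, and stimulated untreated DKO above stimulated untreated EP2KO. Cxcr3 ran from 43.5 CPM in resting EP2KO cells with PGE2 to 7.10 CPM in stimulated DKO cells with CM, and 1 of 17 neighbouring pairs did not overlap, which separated all 9 resting groups from all 9 stimulated ones. Ccr7 ran from 35.3 CPM in stimulated WT cells with PGE2 to 2.54 CPM in stimulated EP2KO cells without treatment, Cxcr4 from 57.9 CPM in resting WT cells with CM to 12.8 CPM in stimulated DKO cells without treatment, and Cxcr6 from 74.1 CPM in resting EP2KO cells without treatment to 31.0 CPM in stimulated WT cells without treatment. For these 3 genes every neighbouring pair of the 17 overlapped. Neighbours in an order by mean lie close by construction, so their overlap says nothing of groups further apart. No share over all genes was computed for these counts.

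Genes with the most similar pattern were sought by Pearson correlation of mean log2 CPM over the 18 groups, among 4941 or 4942 genes whose log2 CPM averaged 5 or more. The groups share libraries' genotypes and conditions, so these values are descriptive. Ccr2 was closely like Pde3b, a cyclic nucleotide phosphodiesterase (r = 0.989) and like Ablim1, an actin-binding protein (0.986). Cxcr3 was most like Selplg, the P-selectin ligand (0.976), Klf3 (0.974) and Trim12a (0.972). For Cxcr4 they were Ctla2a (0.978), the transcription factor Ikzf2 (0.965) and Parp8 (0.965), and for Ccr7 Nudt4 (0.92), the transcription factor Stat3 (0.904) and the phosphatase Dusp5 (0.9). Cxcr6 had the weakest likenesses, Lamp1 (0.849) and Ctsc (0.848) of the lysosome and Fam3c (0.843). Among the 5 themselves, Ccr2 and Cxcr3 were the closest pair (r = 0.936 over the 18 groups), Ccr7 and Cxcr4 came next (0.745), and Ccr7 and Cxcr3 were the least alike (0.120).

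Of other chemokine receptor genes, 3 that were abundant enough to test are described: Ccrl2, Cx3cr1 and Ccr1. Ccrl2, an atypical receptor that binds chemerin, had 2 calls opposite to those of Ccr2 in WT. It rose on stimulation from 6.45 ± 1.45 to 17.1 ± 5.77 CPM (SD, n = 4 each) (1.39 ± 0.37, adjusted p = 0.0016). It fell with PGE2 in stimulated WT cells to 8.41 ± 2.58 CPM (-0.9998 ± 0.35, adjusted p = 0.0425). With CM the fall was not called (-0.83 ± 0.34, adjusted p = 0.089). The rise on stimulation was called in DKO (1.06 ± 0.39, adjusted p = 0.0308) and not in EP2KO (0.82 ± 0.34, adjusted p = 0.0555). In stimulated EP2KO cells neither PGE2 (adjusted p = 0.331) nor CM (adjusted p = 0.465) gave a call. Cx3cr1 and Ccr1 were not called in any of the 35 comparisons, the smallest adjusted p being 0.24. Ccr1 was highest in EP2KO, at 1.92 to 30.5 CPM a library, where the myeloid marker sums were also highest; their part in its level was not tested.

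**Figure D4:**
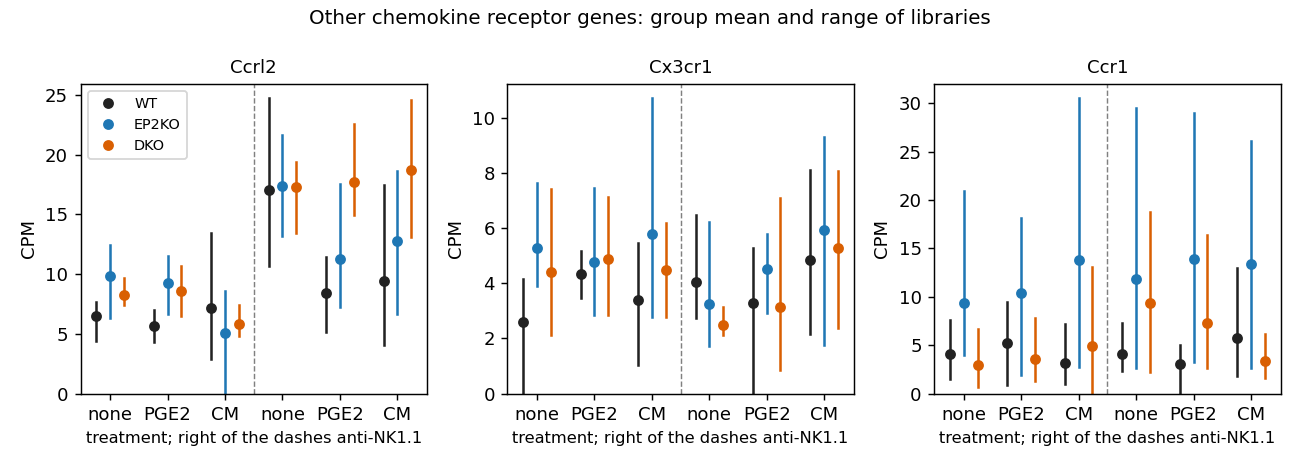
Level in CPM of 3 other chemokine receptor genes in the 18 groups. Points are group means, vertical lines run from the lowest to the highest library, colours are genotypes, and groups right of the dashed line were stimulated. In each genotype and treatment the Ccrl2 mean is higher after stimulation.

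Lists of genes of the same biology are given as counts of called members, read against all tested genes. The median log2 change of all genes was 0.01 with stimulation of WT cells, 0.01 with PGE2 and 0.01 with CM in resting WT cells, and -0.05 with PGE2 and -0.04 with CM in stimulated WT cells.

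Genes that carry the signal of chemokine receptors inside the cell include G protein subunits, PI3K gamma and small GTPases. Of 16 signalling genes, all tested, 6 fell and 1 rose in stimulated untreated WT cells (median log2 change -0.32; all genes 23% higher and 19.1% lower), among them the G protein subunits Gnai2 (947 to 486 CPM, -0.96 ± 0.15, adjusted p = 4.6e-07) and Gng2 (-0.89 ± 0.16, adjusted p = 5.3e-06) and the GTPase Rac2 (-0.9996 ± 0.16, adjusted p = 5.9e-07). In stimulated WT cells 3 of the 16 rose with PGE2, the PI3K gamma subunits Pik3r5 (0.61 ± 0.19, adjusted p = 0.0151) and Pik3cg (0.51 ± 0.18, adjusted p = 0.0385) and Elmo1 (0.37 ± 0.13, adjusted p = 0.0411), and 1 fell with CM, Rap1a (-0.44 ± 0.15, adjusted p = 0.0321); the list's medians were -0.05 and 0.03 (all genes 6% higher and 9.63% lower with PGE2 and 6.2% higher and 9.22% lower with CM). In resting cells the medians were -0.05 with PGE2 and -0.07 with CM.

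Desensitisation genes, which shut receptors off through arrestins, receptor kinases and RGS proteins, were tested for 14 of 15 members. On stimulation of WT cells 4 rose and 5 fell (median -0.28; all genes 23% higher and 19.1% lower), with Rgs16 going from 79.4 to 435 CPM (2.45 ± 0.18, adjusted p = 3.8e-18), Rgs1 from 151 to 456 CPM (1.60 ± 0.15, adjusted p = 1.5e-13) and the arrestin Arrb2 from 107 to 38.6 CPM (-1.47 ± 0.17, adjusted p = 1.7e-10). PGE2 in resting WT cells raised 3 and lowered none (median -0.11; all genes 1.91% higher and 1.05% lower): Rgs2 from 137 to 492 CPM (1.85 ± 0.17, adjusted p = 4.2e-12), Rgs1 (1.62 ± 0.18, adjusted p = 2.7e-10) and Arrb1 (0.97 ± 0.25, adjusted p = 0.0139). CM raised 2 of these, Rgs2 (1.90 ± 0.15, adjusted p = 6.9e-15) and Rgs1 (1.64 ± 0.15, adjusted p = 1.3e-12), with a median of -0.17 (all genes 4.55% higher and 3.68% lower). In stimulated WT cells 2 rose and 2 fell with each treatment (medians 0.11 and 0.09; all genes 6% higher and 9.63% lower with PGE2 and 6.2% higher and 9.22% lower with CM); Rgs2 rose with both, by 1.88 ± 0.15 (adjusted p = 3.1e-15) with PGE2, and Rgs3 fell with both, its change being -0.87 ± 0.19 (adjusted p = 0.00042) with PGE2.

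Other genes of tissue egress and adhesion were tested for 17 of 18 members. On stimulation of WT cells 2 rose and 10 fell (median -0.69; all genes 23% higher and 19.1% lower): Cd69, which pulls the egress receptor S1PR1 from the surface, rose from 54.0 to 229 CPM (2.08 ± 0.14, adjusted p = 2e-19), Cd44 rose by 1.62 ± 0.15 (adjusted p = 7.1e-14), and the sphingosine phosphate receptor S1pr4 fell from 67.0 to 17.6 CPM (-1.90 ± 0.20, adjusted p = 3e-12). With PGE2 in stimulated WT cells 4 rose and 3 fell (median -0.07; all genes 6% higher and 9.63% lower), Cd69 falling with a change of -1.69 ± 0.14 (adjusted p = 2.5e-15), and S1pr4 rising by 1.33 ± 0.21 (adjusted p = 1e-06). With CM 3 rose and 4 fell (median 0.13; all genes 6.2% higher and 9.22% lower), with Cd69 at -1.50 ± 0.14 (adjusted p = 2.7e-13), Selplg at 0.92 ± 0.20 (adjusted p = 0.0005) and S1pr4 at 0.95 ± 0.21 (adjusted p = 0.00069). In resting WT cells Cd69 fell with PGE2, with a change of -0.96 ± 0.21 (adjusted p = 0.0021) (list median -0.05; all genes 1.91% higher and 1.05% lower), and 1 gene rose and 2 fell with CM (median -0.02; all genes 4.55% higher and 3.68% lower): Itga4 at 0.54 ± 0.17 (adjusted p = 0.0325), Cd69 at -0.70 ± 0.17 (adjusted p = 0.0041) and Itgb2 at -0.43 ± 0.12 (adjusted p = 0.0176).

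Transcription factors known in NK cells or downstream of cyclic AMP were tested for 17 of 18 members. Crem, itself a target of cyclic AMP signalling, rose in resting WT cells from 87.8 to 413 CPM with PGE2 (2.23 ± 0.21, adjusted p = 5.9e-12) and by 1.98 ± 0.19 (adjusted p = 2.9e-12) with CM, and in stimulated cells by 1.91 ± 0.19 (adjusted p = 3.4e-12) and 1.59 ± 0.19 (adjusted p = 1.6e-09). Hif1a rose by 1.06 ± 0.16 (adjusted p = 5.9e-06) with PGE2 at rest, and Foxo1, a factor of lymphocyte homing, by 0.93 ± 0.17 (adjusted p = 0.00018) at rest and 0.93 ± 0.15 (adjusted p = 2.5e-06) in stimulated cells. With CM, Id2 fell at rest (-0.88 ± 0.12, adjusted p = 1.6e-07) and Bcl6 rose in stimulated cells (1.29 ± 0.23, adjusted p = 2.1e-05). The list as a whole had 4 rises and 1 fall with PGE2 at rest (median 0.03; all genes 1.91% higher and 1.05% lower), 5 and 2 with CM (0.11; 4.55% higher and 3.68% lower), 7 and 2 with PGE2 on stimulation (0.40; 6% higher and 9.63% lower) and 8 and 3 with CM (0.13; 6.2% higher and 9.22% lower). Stimulation alone gave 4 rises and 6 falls (median -0.17; all genes 23% higher and 19.1% lower), with Zeb2 at 2.39 ± 0.19 (adjusted p = 2.9e-16), Nr4a1 at 2.18 ± 0.21 (adjusted p = 6.5e-13) and Tcf7 at -1.27 ± 0.15 (adjusted p = 2.3e-10). Of the 13 NK cell markers, 4 rose and 7 fell on stimulation of WT cells (all genes 23% higher and 19.1% lower), among them Prf1 (1.63 ± 0.18, adjusted p = 2.9e-11) and Ncr1 (-0.82 ± 0.15, adjusted p = 1e-05), and 5 fell with PGE2 and 5 with CM in stimulated WT cells (all genes 9.63% and 9.22% lower), where Prf1 changed by -0.96 ± 0.18 (adjusted p = 3.5e-05) and -1.11 ± 0.18 (adjusted p = 3e-06). The lists were drawn up with earlier results of these data known, and they are described here by their counts only.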

How the data were processed

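Bulk 3' mRNA sequencing of 64 libraries was used as the deposited table of raw counts per gene. Its values are counts as the authors deposited them, with GRCm38/mm10 and DESeq2 named per the submitters' processing notes; for the aligner, the counter, the annotation and whether a count stands for a molecule or a read, the answer is not given in the sources used here. Groups came from the labels. Counts were fitted in edgeR 4.0.16 (R 4.3.3; TMM factors, quasi-likelihood test, robust) over all 64 libraries with 18 group means, after filterByExpr with a minimum count of 10, which kept 10723 of 36273 genes and 99.21% of counts. In all 35 comparisons were made, with p-values adjusted by Benjamini-Hochberg over all tested genes and called under 0.05. Standard errors (±) are the log2 fold change divided by the square root of F, and intervals are 95%. CPM of single genes use TMM factors, except Xist, Ddx3y, Ptger2, Ptger4 and the averages of marker genes over the 64 libraries. These and the marker sums are plain CPM. DESeq2 1.42.0, RLE factors, the compared groups alone, no filter, a replicate block and leaving out each library were alternatives; leaving out the EP2KO libraries numbered 1 and 4 was chosen after seeing the data. The fit was tested on simulated data. The 5 genes and all lists were chosen with earlier results of these data known. Named are the 5 genes in every group, up to 3 called genes of each list with the smallest p in the WT comparisons, tested other chemokine receptors, and the 3 genes most like each of the 5, passing over predicted genes and receptor segments. Some items this rule names are not reported here.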

Additional observations from a re-analysis of the deposited data

Results flagged for a closer look

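In 3 of 55 sets of 4 values (5 genes, groups of 4 libraries), 1 library stood far from the rest; chance alone gives about 1 in 20. Ccr2 was 1175 CPM in library 1 of stimulated WT cells with PGE2, where the others held 859.8 to 902 CPM. Cxcr4 was 38.2 CPM in library 4 of resting untreated EP2KO cells (others 10.4 to 14.1 CPM) and 56.2 CPM in library 4 of stimulated EP2KO cells with PGE2 (others 29.1 to 33.3 CPM).

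A difference between effects of the same treatment was called in 4 tested cases (edgeR, adjusted over all genes). The PGE2 effect on Ccr2 was higher in stimulated than in resting WT cells by 1.08 on the log2 scale, the CM effect on Ccr2 by 0.75 and the CM effect on Cxcr6 by 1.66. The PGE2 effect on Ccr2 in stimulated cells was lower in DKO than in EP2KO, with a difference of -1.07. Both Ccr2 differences between stimulated and resting cells were lost with only the compared groups fitted. For CM that call was also lost without any 1 of 7 of the 16 libraries. The DKO against EP2KO call was lost without the EP2KO libraries numbered 1 and 4, and these genotypes also differ in sex-linked genes. The Cxcr6 call stood without any 1 library.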

How the results depend on the processing

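Each of the 5 genes was tested in 35 comparisons, 175 results in all, and no direction of a called result reversed under any alternative. The call was the same for 172 of 175 with DESeq2, 175 of 175 with RLE factors, 167 of 175 with only the compared groups fitted, 169 of 175 without the filter and 1700 of 1730 over fits without 1 library. The number of the 5 called for PGE2 in resting WT cells was 1, and 2 with DESeq2, with only the compared groups and without the filter. For CM in resting WT cells it was 2, and 4 with DESeq2 and with only the compared groups. For the stimulated against resting difference in WT it was 1 for PGE2 and 2 for CM, and 0 and 1 with only the compared groups. For the DKO against EP2KO difference of the CM effect in stimulated cells it was 0, and 1 without the filter (Ccr7). Without the EP2KO libraries numbered 1 and 4, chosen after seeing the data, 101 of 105 calls were the same; the DKO against EP2KO differences then held 1 for PGE2 at rest (Cxcr4), 0 for PGE2 on stimulation and 1 for CM on stimulation (Ccr7). The cause was not tested.

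Over fits without 1 library, the number called ranged from 0 to 1 for PGE2 in resting WT, 1 to 3 for CM in resting WT, 1 to 2 for PGE2 in resting EP2KO, 0 to 1 and 1 to 2 for the stimulated against resting difference of PGE2 and CM, and 0 to 1 for the DKO against EP2KO difference of PGE2 at rest and of CM on stimulation. Single calls in stimulated cells changed as well. The Cxcr3 call with CM in WT and the Cxcr4 call with PGE2 in EP2KO were each lost without 1 library. A Cxcr6 call was gained with CM in EP2KO without 1 library. It was also gained on stimulation of untreated DKO cells without either of 2 libraries. Where a resting WT PGE2 library is left out, the lone one is taken to vary as libraries of other groups do.

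Replicate numbers recur across groups, but the labels do not say what they mark. Of 155 same-numbered pairs, 133 had deviations from the group means correlated above 0.1 (median 0.346, range -0.305 to 0.819 over 5046 genes). A library correlated best with its own number in 76 of 100 comparisons in WT, 98 of 120 in EP2KO and 80 of 90 in DKO. The groups compared hold 2 to 4 libraries in WT, 4 in EP2KO and 3 in DKO. These values hint at shared sources, but the labels do not state them, so the main fit did not pair libraries. With the number as a replicate block, 138 of 155 calls were the same, 17 were gained and 0 were lost. If the numbers do mark shared animals or cultures, the main fit misses those 17. The count became 3 for PGE2 and 4 for CM in resting WT, where Ccr2 (adjusted p = 0.0078 and 0.0033) and Ccr7 were gained, 2 for CM in resting EP2KO, 1 for CM in stimulated DKO (Cxcr4, adjusted p = 0.0368), 3 for the stimulated against resting difference of PGE2 in WT, and for the DKO against EP2KO differences 1 for PGE2 at rest, 2 for PGE2 on stimulation and 2 for CM on stimulation.

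Ccr7, with 0 to 59 counts a library, and Cxcr3, with 6 to 63, are limited by depth.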

Other observations

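Within a genotype, libraries with the same number held the same highest or lowest rank in most groups for some genes. For others no number stood out: in DKO, Ccr2 was highest in library 1, 2 and 3 in 2, 3 and 1 of 6 groups. No rate by chance was computed, and the cases named here are picked ones. Cxcr4 was highest in library 4 in 6 of 6 EP2KO groups and lowest in library 1 in 5 of 6 DKO groups. Cxcr6 was highest in library 3 and lowest in library 1 in 6 of 6 DKO groups, and Ccr7 was highest in library 3 in 5 of 6 EP2KO groups.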
